A study of Mus musculus with 4 samples.

Results

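Bpifa1, Bpifb1, Reg3g, Ltf, Lcn2, Lyz2, Slpi, Wfdc2, C3 and Pigr are 10 genes for antimicrobial and acute phase proteins that airway epithelium secretes. They were taken by symbol, and all 10 were found among the 30907 features counted in each of 4 single-cell libraries from mouse trachea. The study transplanted airway basal cells, the stem cells of the tracheal lining, into injured tracheas of adult wild type mice. Each recipient had 2% polidocanol, a detergent that strips the epithelium, put into the trachea, and 6000000 donor cells 5 h later. One recipient, labelled 129 X1/S1, received iBCs, which the series title gives as basal cells derived from embryonic stem cells (ESCs), and was examined after 192 days. The other, labelled C57BL/6, received primary basal cells (primary BCs) and was examined after 69 days. Each trachea was digested with pronase and sorted by FACS, within a Calcein Blue live gate, into GFP+ donor-derived cells and GFP- endogenous cells. Every group was thus 1 library of 1 named recipient, whether tracheas were pooled is not stated, and no difference below has a replicate check. Both recipients' endogenous cells had been through the same injury and transplantation, and an uninjured trachea named in the protocol is not analysed here. Between the recipients, the donor cells, the days, the strain and the animal cannot be told apart.

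The fluid that lines the airway carries proteins that bind, starve or lyse microbes, and most of them come from secretory (club and goblet) cells and submucosal glands. Several of these genes are induced during infection or injury by cytokines such as IL-17, IL-22 and IL-6, acting through NF-kB, C/EBP and STAT factors, which is why some are grouped with the acute phase proteins of the liver. The products do different work: BPIFA1 and BPIFB1 belong to the lipid-binding BPI fold family, REG3G is a lectin that binds Gram-positive bacteria, lactoferrin (Ltf) and lipocalin 2 (Lcn2) withhold iron, lysozyme (Lyz2) cuts cell walls, SLPI and WFDC2 carry WAP domains and SLPI inhibits proteases, C3 is the central complement protein, and the polymeric immunoglobulin receptor (Pigr) carries IgA to the lumen.

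The filtered libraries held 1576 iBC donor-derived and 1807 iBC recipient endogenous cells, and 1805 primary BC donor-derived and 1354 primary BC recipient endogenous cells. The deposited totals ran from 21504563 to 26625123 unique molecular identifiers (UMIs) per library, with medians of 9298 to 14175 UMIs per barcode. Cells were put in classes by scores over marker genes that include none of the 10 genes. Basal-like cells numbered 505, 665, 1028 and 566, secretory-like cells 445, 553, 275 and 282, and ciliated-like cells 270, 366, 170 and 211, in the order iBC donor-derived, iBC endogenous, primary BC donor-derived and primary BC endogenous. Among the leading genes of each of these classes, its own markers were at least as many as those of any other class. Libraries shared at most 1 cell barcode. Between 15.9% and 26.9% of the cells of a library lay near a gate. In the iBC recipient each class was held mostly by different Leiden clusters in the 2 libraries (cluster 1 against 5 and 10 for basal-like, 6 against 3 for secretory-like, 11 against 7 for ciliated-like), and the same held between the recipients, where clusters 0, 4 and 9 held most primary BC donor-derived cells of these classes. Primary BC basal-like cells lay mostly in cluster 0 in the donor-derived library and in the unnamed cluster 8 in the endogenous library, while secretory- and ciliated-like cells of that recipient shared clusters 4 and 9. A difference between libraries in other clusters may include a difference in the makeup of the class. Levels below are CPM, the UMIs of a gene per 1000000 UMIs summed over a class in 1 library. Intervals are exact 95% Poisson or binomial intervals and cover counting error only.

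The sort label was checked with the EGFP reporter feature. EGFP UMIs were found in 758 of 1576 iBC donor-derived cells (48.1%) against 1 of 1807 endogenous cells of that recipient (0.0553%), and in 1785 of 1805 primary BC donor-derived cells (98.9%) against 29 of 1354 endogenous cells (2.14%). Within the iBC GFP+ library, 23 cells (1.46%) lay in Leiden clusters, made without the 10 genes, in which endogenous cells of the same recipient were the majority. Of these 23 cells, 2 (8.70%) had an EGFP UMI. They held 2363 of the 2399 Bpifa1 UMIs and 489 of the 520 Reg3g UMIs of the whole library, so the class levels and ratios of these genes are given with and without them. Free RNA was also present. Immune-like cells, which should lack Bpifa1, had a Bpifa1 UMI in 58.3% of 24 cells of the iBC recipient endogenous library (median 8542.5 UMIs per cell) and in 96.9% of 65 cells of the primary BC recipient endogenous library (median 11612). Shares of cells with a UMI are read against these cells, and the 2 GFP+ libraries held 0 and 2 immune-like cells, too few to give such a background.

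The 10 genes made up a large part of the RNA of secretory-like cells, except in the iBC donor-derived library. They took 1.57% of all UMIs of iBC donor-derived secretory-like cells against 6.22% in endogenous cells of that recipient, and 21.1% in primary BC donor-derived against 21.3% in endogenous secretory-like cells. In ciliated-like cells the shares were 0.379% against 1.83% and 3.96% against 3.32%, and in basal-like cells 0.180% against 0.512% and 1.71% against 1.95%. The gene that led the sum differed. Wfdc2 gave 55.1% of the summed UMIs of the 10 genes in iBC donor-derived secretory-like cells, while Bpifa1 gave 54.0% in iBC endogenous, 64.0% in primary BC donor-derived and 55.0% in primary BC endogenous cells. UMIs are not divided by gene length, so these are shares of UMIs.

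**Figure D1:**
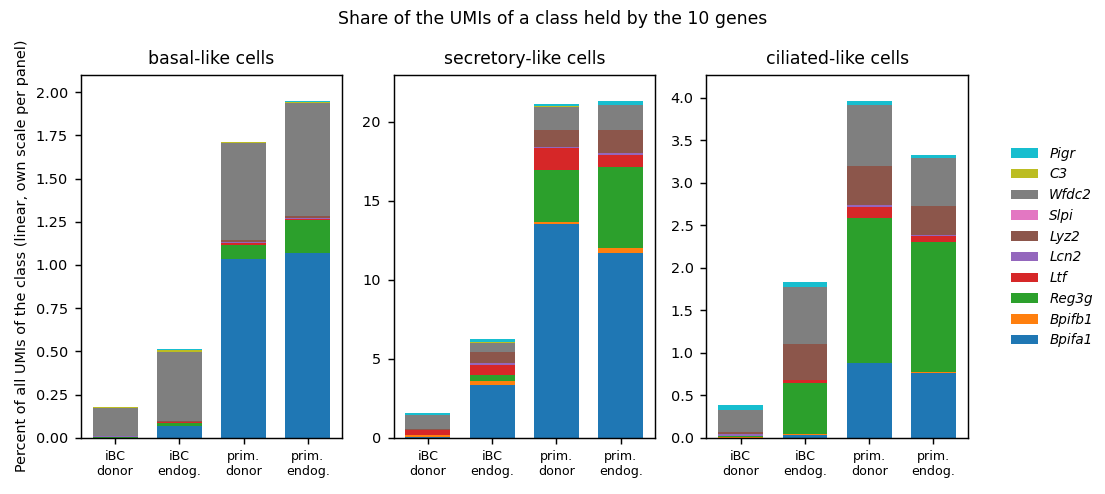
Percent of all UMIs taken by each of the 10 genes (stacked bars, linear axis from 0) in each class and library. In secretory-like cells the stack reaches 1.57% in the iBC donor-derived library, against 6.22% in iBC recipient endogenous cells, and about the same height in both primary BC libraries (21.1% and 21.3%).

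Secretory-like cells had the highest level of most genes. Of the 40 pairs of a gene and a library, 36 were highest in secretory-like cells among the basal-, secretory- and ciliated-like classes. A secretory-like cell had UMIs of a median of 5 of the 10 genes in the iBC donor-derived library against 8 in iBC endogenous cells, and 9 in both primary BC libraries. For basal-like cells the medians were 2 against 3 and 4 against 4, and for ciliated-like cells 3 against 5 and 6 against 6. Secretory-like cells were also the deepest of these 3 classes, with medians of 16438 to 25763.5 UMIs, against 7726 to 11947.5 in basal-like cells.

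**Figure D2:**
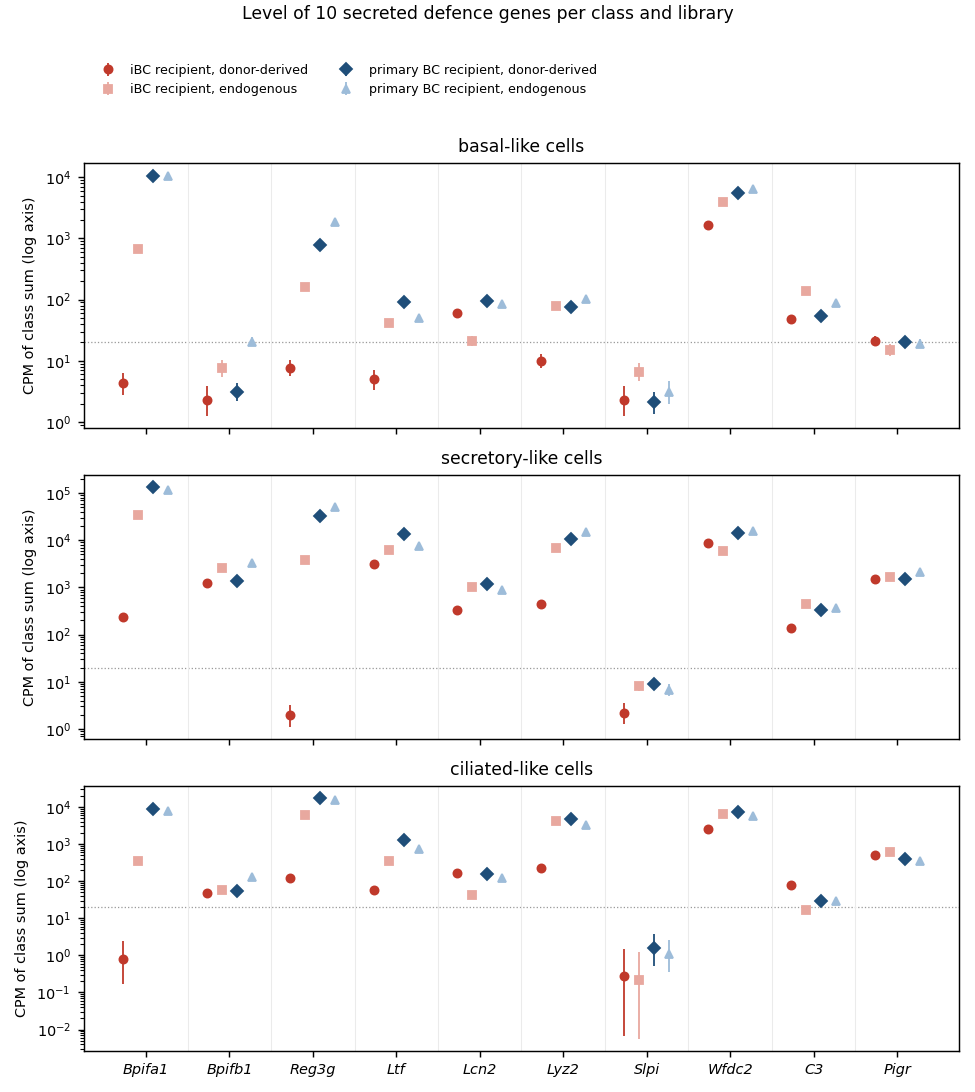
Level of each gene (CPM, log axis) in basal-, secretory- and ciliated-like cells of the 4 libraries, with exact 95% Poisson intervals for counting error and a dotted line at 20 CPM, the lowest level at which a ratio was read. In secretory- and ciliated-like cells, Bpifa1, Reg3g and Lyz2 of the iBC donor-derived library sit furthest below the other 3 libraries. Pigr lies between 1485 and 2131 CPM in secretory-like cells of all 4.

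Bpifa1, also called SPLUNC1, is a surfactant-like protein of the upper airway that binds lipid and restrains epithelial sodium channels. Its gene lies on the forward strand of chr2:154142880-154149219 (GRCm38, GENCODE vM21), beside Bpifb1 (chr2:154190818-154220369). In secretory-like cells Bpifa1 had 239.5 CPM in iBC donor-derived against 33600 CPM in iBC endogenous cells, and 135100 CPM in primary BC donor-derived against 117100 CPM in primary BC endogenous cells. The iBC donor-derived level was 140-fold lower than the endogenous level of the same recipient (interval 134 to 147). Without the 2 secretory-like cells that lay in endogenous-majority clusters it was 3.65 CPM, from 28 UMIs in 8 of 443 cells. A single cell with 1764 Bpifa1 UMIs, which also had 1 EGFP UMI, carried most of the library's total of 2399.

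The distribution over cells shows the same. A Bpifa1 UMI was found in 2.25% of iBC donor-derived secretory-like cells, against 96.6% of iBC endogenous cells. Among primary BC secretory-like cells, 99.6% of donor-derived against 100% of endogenous ones had a UMI. After thinning to 4000 UMIs per cell the shares were 0.995%, 92.9%, 99.5% and 100%, against 34.8% and 83.0% of the immune-like cells of the endogenous libraries. The median secretory-like cell had 0 Bpifa1 UMIs per 10000 in the iBC donor-derived library and 122 in iBC endogenous cells. It had 1228 in primary BC donor-derived and 1100 in primary BC endogenous cells, so that more than 10% of a typical cell's UMIs came from this gene. Among iBC endogenous cells the middle 80% ran from 2.84 to 876 per 10000, which reaches closer to 0 than the 457 to 2131 of primary BC donor-derived cells or the 332 to 1950 of primary BC endogenous cells.

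Basal-like cells had 4.28 CPM of Bpifa1 in the iBC donor-derived library (0.504 CPM, 3 UMIs, without 11 cells in endogenous-majority clusters) against 678.7 CPM in iBC endogenous cells, and 10370 CPM against 10700 CPM in the primary BC recipient. The basal-like median was 0 UMIs per 10000 in both iBC recipient libraries, 8.21 in primary BC donor-derived and 14.3 in primary BC endogenous cells, against 4.58 in primary BC endogenous immune-like cells. Ciliated-like cells had 3 Bpifa1 UMIs in the iBC donor-derived library (0.815 CPM, and 0.857 CPM without the 7 such cells), a ratio of 0.00227 to the 359.3 CPM of iBC endogenous cells (interval 0.000467 to 0.00664). They had 8785 CPM in primary BC donor-derived against 7641 CPM in endogenous ciliated-like cells, where the 10% of cells with the most UMIs held 97.6% and 94.7% of them. Among the 25% of ciliated-like cells with the lowest secretoglobin level, Bpifa1 was at 231.5 CPM and 703.6 CPM in these 2 libraries, which is under the 1036 CPM of primary BC endogenous immune-like cells. It was at 76.19 CPM in such cells of the iBC endogenous library, also under the 87.97 CPM of immune-like cells there (interval 55.13 to 133.2). Basal-like cells of that library with the lowest secretoglobin level had 96.82 CPM of Bpifa1, within that interval. The part of free RNA in the ciliated-like and iBC endogenous basal-like Bpifa1 levels was not tested.

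Bpifb1 (LPLUNC1), a related long BPI fold protein made by goblet and gland cells, varied much less. Secretory-like cells had 1237 CPM in iBC donor-derived against 2563 CPM in iBC endogenous cells, and 1340 CPM in primary BC donor-derived against 3249 CPM in primary BC endogenous cells. Donor-derived cells were lower in both recipients, 2.07-fold (interval 2.02 to 2.12) and 2.43-fold (interval 2.37 to 2.49). The iBC recipient difference was under 2-fold with cells near a gate left out. Both donor-derived levels, 1237 and 1340 CPM, lay close together. A UMI was found in 52.6% of iBC donor-derived against 78.7% of iBC endogenous secretory-like cells, and in 64.4% of primary BC donor-derived against 86.2% of endogenous cells. The median donor-derived cell held 0.511 and 1.75 UMIs per 10000 in the iBC and primary BC recipients, against 15.6 and 13.5 in the endogenous cells, and the 10% of cells with the most UMIs held 64.8% and 60.8% against 37.7% and 41.1%. Donor-derived secretory-like cells of both recipients thus had Bpifb1 concentrated in fewer cells. Basal-like cells had at most 20.6 CPM and ciliated-like cells 49.46 to 127.4 CPM. The share of primary BC endogenous basal-like cells with a Bpifb1 UMI (14.3%, median 11947.5 UMIs per cell) was near that of immune-like cells of the library (13.9%, median 11612), so the basal-like level is read as background.

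Reg3g, a secreted C-type lectin that is induced by IL-22 in gut and airway, lies on the reverse strand of chr6:78466269-78468872. In secretory-like cells it had 1.94 CPM in iBC donor-derived (15 UMIs, interval 1.09 to 3.21) against 3770 CPM in iBC endogenous cells, a 1939-fold lower level (interval 1176 to 3466). Without the cells in endogenous-majority clusters the iBC donor-derived level was 1.70 CPM (13 UMIs). It had 32800 CPM in primary BC donor-derived against 51170 CPM in primary BC endogenous secretory-like cells. The median secretory-like cell had 0 Reg3g UMIs per 10000 in the iBC donor-derived library against 2.53 in iBC endogenous cells, and 240 in primary BC donor-derived against 424.5 in primary BC endogenous cells. In iBC endogenous secretory-like cells the 10% of cells with the most UMIs held 67.5% of the Reg3g UMIs, against 35.9% and 29.2% in the primary BC donor-derived and endogenous cells.

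Ciliated-like cells were the other main source of Reg3g. They had 123.6 CPM in iBC donor-derived against 5976 CPM in iBC endogenous cells, and 17050 CPM in primary BC donor-derived against 15230 CPM in primary BC endogenous cells. Reg3g was the first of the 10 genes in primary BC ciliated-like cells, with 43.1% of their summed UMIs in donor-derived and 45.9% in endogenous cells. The iBC recipient's endogenous cells had more in ciliated-like than in secretory-like cells (5976 against 3770 CPM), while in the primary BC recipient the secretory-like level was higher. Without 7 ciliated-like cells in endogenous-majority clusters the iBC donor-derived level was 0.571 CPM (2 UMIs). The median ciliated-like cell had 0 against 18.2 UMIs per 10000 in the iBC recipient, and 157 against 127 in the primary BC recipient, where immune-like endogenous cells had a median of 2.14.

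Ciliated-like cells did not hold Reg3g and the main secretory transcript in the proportion of secretory-like cells. The ratio of Reg3g to Scgb1a1 UMIs (Scgb1a1 is the club cell secretoglobin) was 0.794 in iBC endogenous ciliated-like cells against 0.0159 in secretory-like cells of that library. It was 6.54 against 0.489 in primary BC donor-derived and 7.05 against 0.758 in primary BC endogenous cells, where immune-like cells had 0.167. In the 25% of ciliated-like cells with the lowest secretoglobin level, Reg3g had 0 UMIs in 86 iBC donor-derived cells against 8255 CPM in 105 iBC endogenous cells, and 18090 CPM in 54 primary BC donor-derived against 15920 CPM in 70 endogenous cells. Lyz2 shared this pattern, with a ratio to Scgb1a1 of 0.569 in ciliated-like against 0.0285 in secretory-like iBC endogenous cells, 1.78 against 0.159 in primary BC donor-derived and 1.57 against 0.219 in primary BC endogenous cells.

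**Figure D3:**
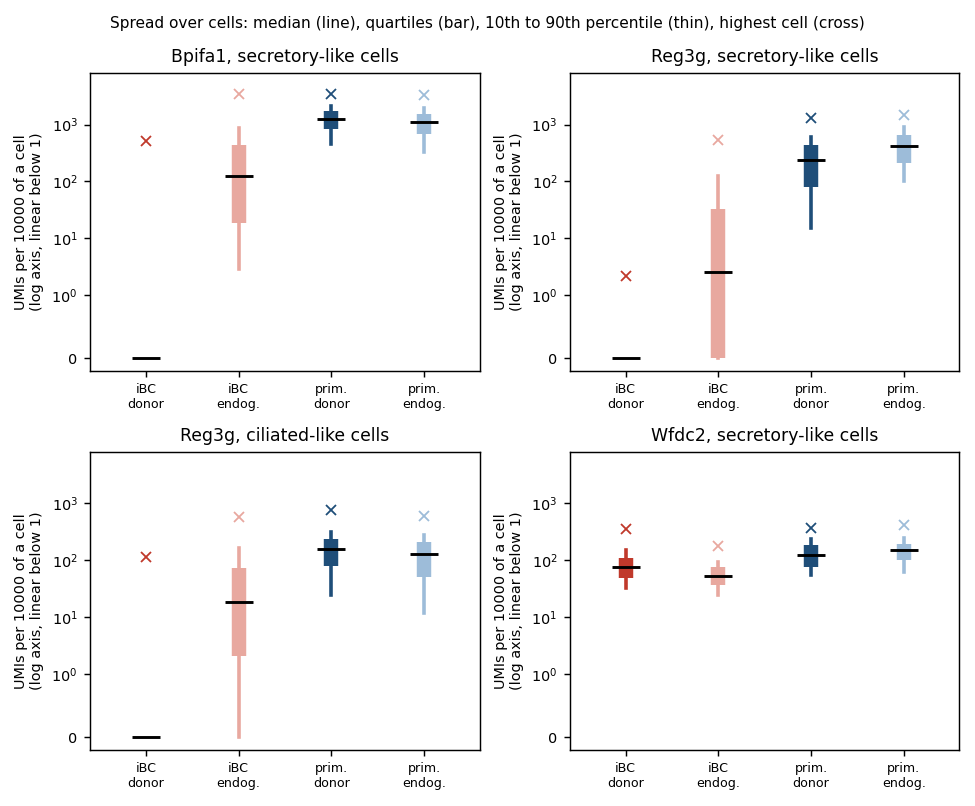
UMIs per 10000 in single cells for Bpifa1, Reg3g and Wfdc2 in secretory-like cells and Reg3g in ciliated-like cells, by library, with median, quartiles, middle 80% and highest cell. Bpifa1 and Reg3g have a median of 0 in the iBC donor-derived library, where only single cells reach high values, while the Wfdc2 range of that library (median 75.8) overlaps that of iBC recipient endogenous cells (median 53.1).

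Lyz2, the lysozyme of macrophages and of airway secretory cells, lies at chr10:117277331-117282321, and its reads can be shared with its close copy Lyz1. In secretory-like cells Lyz1 had 13.61 CPM in iBC donor-derived against 52.69 CPM in iBC endogenous cells, and it was among the leading genes of the tuft-like cluster. Secretory-like cells had 443.9 CPM of Lyz2 in iBC donor-derived against 6765 CPM in iBC endogenous cells, and 10680 CPM in primary BC donor-derived against 14800 CPM in primary BC endogenous cells. The iBC donor-derived level was 15.2-fold lower than the endogenous level (interval 14.7 to 15.8). A UMI was found in 26.7% of iBC donor-derived against 88.1% of endogenous secretory-like cells, and the 10% of cells with the most UMIs held 95.9% of the Lyz2 UMIs in iBC donor-derived against 49.1% in endogenous cells. Unlike Bpifa1, Lyz2 in iBC donor-derived secretory-like cells did not rest on the cells in endogenous-majority clusters: they had 409.9 CPM without those cells. Of all iBC donor-derived secretory-like cells, 29 held 10 or more Lyz2 UMIs, and 17 of these had an EGFP UMI. The highest of them held 962, 693 and 340 of the 3426 Lyz2 UMIs of the class. Ciliated-like cells had 221.2 CPM in iBC donor-derived against 4283 CPM in iBC endogenous cells, 19.36-fold lower (interval 18.05 to 20.79), and 83.09 CPM without the 7 cells in endogenous-majority clusters. Primary BC ciliated-like cells had 4646 CPM in donor-derived against 3381 CPM in endogenous cells. Macrophage markers summed to at most 13.04 CPM in the 3 epithelial classes.

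Ltf, the iron-binding lactoferrin of mucosal fluids and neutrophil granules (chr9:111019271-111042767), was second to Wfdc2 among the 10 genes in iBC donor-derived secretory-like cells. It had 3157 CPM there against 6328 CPM in iBC endogenous cells, and 13810 CPM in primary BC donor-derived against 7533 CPM in primary BC endogenous cells. The iBC donor-derived level was 2.00-fold lower (interval 1.98 to 2.04), which lies on the 2-fold line: with doublets kept, with cells near a gate left out, or with EGFP-positive donor-derived cells only, the difference was under 2-fold. The primary BC donor-derived level was 1.83-fold higher than the endogenous one (interval 1.81 to 1.85) and was not called. A UMI was found in 84.5% against 86.4% of secretory-like cells in the iBC recipient and in 94.2% against 97.2% in the primary BC recipient. The median cell had 13.7 Ltf UMIs per 10000 in iBC donor-derived against 20.5 in iBC endogenous cells, and 129 in primary BC donor-derived against 45.5 in primary BC endogenous cells. Ciliated-like cells had 57.34 CPM against 354.1 CPM in the iBC recipient, 6.18-fold lower (interval 5.35 to 7.16), and 1277 CPM against 739.6 CPM in the primary BC recipient. In the 25% of cells with the lowest secretoglobin level the 4 ciliated-like values were 17.44, 54.76, 50.93 and 50 CPM in the order iBC donor-derived, iBC endogenous, primary BC donor-derived and primary BC endogenous. Neutrophil markers summed to at most 1.647 CPM in the 3 epithelial classes.

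Lcn2, which binds the siderophores that bacteria use to take up iron (chr2:32384633-32388252, reverse strand), and C3, the complement protein whose cleavage marks microbes for uptake (chr17:57203970-57228136, reverse strand), differed in opposite directions in different classes of the iBC recipient. In secretory-like cells Lcn2 had 339.2 CPM in iBC donor-derived against 1026 CPM in iBC endogenous cells, 3.03-fold lower (interval 2.90 to 3.16), and C3 had 137.0 CPM against 450.6 CPM, 3.29-fold lower (interval 3.07 to 3.52). In ciliated-like cells Lcn2 had 165.0 CPM in iBC donor-derived against 42.06 CPM in endogenous cells, 3.92-fold higher (interval 3.33 to 4.64), and C3 had 80.71 CPM against 16.33 CPM, 4.94-fold higher (interval 3.81 to 6.47). Both genes were thus lower in donor-derived secretory-like cells and higher in donor-derived ciliated-like cells of the same recipient.

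The ciliated-like difference was also seen in the number of cells. After thinning to 4000 UMIs a Lcn2 UMI was found in 25.2% of iBC donor-derived against 8.05% of endogenous ciliated-like cells, and a C3 UMI in 19.2% against 4.10%. Before thinning the shares were 40.7% against 16.4% for Lcn2 and 35.9% against 9.29% for C3, with 4.17% of immune-like iBC endogenous cells for either gene. In the cells with the lowest secretoglobin level Lcn2 had 95.93 CPM in iBC donor-derived against 9.52 CPM in endogenous ciliated-like cells. There C3 had 72.67 CPM against 0 UMIs, both after thinning to 4000 UMIs per cell. Without the 7 cells in endogenous-majority clusters the iBC donor-derived levels were 131.3 CPM for Lcn2 and 74.52 CPM for C3. With doublets kept, the ciliated-like log2 ratios were 0.53 for Lcn2 and 0.93 for C3, both under 2-fold. In the primary BC recipient the ciliated-like levels were 159.9 against 120.1 CPM for Lcn2 and 30.15 against 29.41 CPM for C3.

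Basal-like cells separated these 2 genes. Lcn2 had 60.61 CPM in iBC donor-derived against 21.10 CPM in iBC endogenous cells, 2.87-fold higher (interval 2.32 to 3.58), and the log2 ratio was 0.75 with Leiden classes and 0.50 in the 25% of cells with the lowest secretoglobin level. The primary BC recipient had 95.54 CPM against 83.61 CPM. C3 had 48.59 CPM in iBC donor-derived against 137.5 CPM in iBC endogenous cells, 2.83-fold lower (interval 2.47 to 3.25), and 53.84 CPM against 89.03 CPM in the primary BC recipient. In secretory-like cells of the primary BC recipient Lcn2 had 1209 CPM in donor-derived against 884.6 CPM in endogenous cells and C3 had 330.7 against 368.3 CPM.

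Wfdc2, a WAP domain protein with antibacterial activity that airway epithelium makes throughout (chr2:164562413-164568510), was spread over the most cells of the 10 genes. A UMI was found in at least 99.6% of the cells in each of the 3 epithelial classes of all 4 libraries, against 20.8% and 61.5% of the immune-like cells of the iBC and primary BC recipient endogenous libraries. Secretory-like cells had 8669 CPM in iBC donor-derived against 6024 CPM in iBC endogenous cells, and 14380 CPM in primary BC donor-derived against 15540 CPM in primary BC endogenous cells. Wfdc2 was 1.44-fold higher in iBC donor-derived secretory-like cells (interval 1.423 to 1.455), which was not called. The median gene tested in that comparison lay at a log2 ratio of 0.35, and relative to it Wfdc2 had a log2 ratio of 0.17. In basal-like cells it was lower in iBC donor-derived cells, at 1642 CPM against 3973 CPM, 2.42-fold (interval 2.36 to 2.48). In ciliated-like cells it was also lower, at 2590 CPM against 6625 CPM, 2.56-fold (interval 2.50 to 2.62). The primary BC recipient had 5641 CPM against 6514 CPM in basal-like and 7144 CPM against 5607 CPM in ciliated-like cells.

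Slpi, a WAP domain inhibitor of neutrophil elastase (chr2:164354070-164389095, reverse strand), was under 20 CPM in every epithelial class, so no ratio was read. Secretory-like cells had 2.20 CPM (17 UMIs) in iBC donor-derived against 7.97 CPM (72 UMIs) in iBC endogenous cells, and 9.03 CPM (56 UMIs) in primary BC donor-derived against 6.72 CPM (49 UMIs) in primary BC endogenous cells. Its highest level was in the 24 immune-like cells of the iBC endogenous library, at 235.9 CPM from 59 UMIs in 7 cells.

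Pigr, which moves polymeric IgA across the epithelium and whose shed part is the secretory component (chr1:130826684-130852249), differed least between libraries in secretory-like cells. These cells had 1495 CPM in iBC donor-derived against 1676 CPM in iBC endogenous cells, a ratio of 0.892 (interval 0.870 to 0.914), and 1485 CPM in primary BC donor-derived against 2131 CPM in primary BC endogenous cells. The levels of the 2 donor-derived libraries had overlapping intervals, with a ratio of 1.01 for iBC over primary BC (interval 0.980 to 1.03). A UMI was found in 96.0% to 98.7% of secretory-like cells in all 4 libraries. Ciliated-like cells had 502.5 CPM against 627.3 CPM in the iBC recipient and 408.3 CPM against 347.1 CPM in the primary BC recipient. Basal-like cells had 21.41 CPM against 15.26 CPM and 20.37 CPM against 18.97 CPM.

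Within the iBC recipient, donor-derived over endogenous, 7 genes were lower and 0 higher among the 9 measured in secretory-like cells. A gene counted as measured with at least 20 CPM in 1 of the 2 sums, and as called with at least a 2-fold difference and a counting interval that leaves out a ratio of 1. Over the 5193 genes tested there, 3.49% were called lower and 9.01% higher. Basal-like cells had 6 lower and 1 higher of 8, with 3.44% and 4.79% over 6537 genes, and ciliated-like cells 5 lower and 2 higher of 9, with 4.78% and 3.67% over 7114 genes. Bpifa1, Reg3g, Ltf and Lyz2 were lower in all 3 classes, C3 in basal- and secretory-like, Wfdc2 in basal- and ciliated-like, and Bpifb1 and Lcn2 in secretory-like cells. Of these, ciliated-like Bpifa1 in the endogenous library fell under the immune-like level at the lowest secretoglobin level. Basal-like Bpifa1 of that library was 96.82 CPM at the lowest secretoglobin level, within the interval of immune-like cells (above). The interval of basal-like Ltf in that library overlapped that of immune-like cells (above). Lcn2 was higher in basal- and ciliated-like cells and C3 in ciliated-like cells. No ratio was called for cells between gates (328 donor-derived and 186 endogenous), whose levels follow in that order. Bpifa1 (161.0 against 10060 CPM), Reg3g (0.925 against 370.0), Ltf (691.2 against 972.2), Wfdc2 (2632 against 3916) and C3 (60.14 against 163.4) were lower. Bpifb1 (290.5 against 26.92 CPM) and Pigr (723.5 against 373.1) were higher. The intervals of Lyz2 (881.1 and 828.2 CPM) and Lcn2 (77.41 and 81.38 CPM) overlapped. The median log2 ratio of the measured genes was -1.81, -1.58 and -1.35 in basal-, secretory- and ciliated-like cells, against 0.14, 0.35 and 0.08 over all genes tested. The ratios of Bpifa1, Reg3g, Lyz2 and Wfdc2 called here did not fall under 2-fold in any alternative run, and the counts were the same without the iBC donor-derived cells in endogenous-majority clusters. In basal-, secretory- and ciliated-like cells the log2 ratios without those cells were -6.96, -11.92 and -5.96 for Bpifa1, against -6.20, -7.10 and -5.97 with them. For Reg3g they were -4.52, -9.14 and -10.07, against -3.69, -9.09 and -5.54 with them. With iBC donor-derived cells that had an EGFP UMI only, the secretory-like count was 6 lower, with Ltf at 3441 CPM in these cells, under 2-fold from the endogenous level.

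Within the primary BC recipient, fewer of the genes differed. Basal-like cells had 2 lower and 0 higher of 9 measured, with 0.606% and 0.191% of all 6274 genes called. Secretory-like cells had 1 lower and 0 higher of 9, with 0.532% and 0.389% of 4887 genes. Ciliated-like cells had 1 lower and 0 higher of 9, with 0.304% and 0.536% of 6906 genes. Bpifb1 was lower in all 3 classes, but its basal-like level was read as background (above). In the basal-like cells of the primary BC recipient Reg3g was lower, at 786.3 CPM in donor-derived against 1891 CPM in endogenous cells, 2.40-fold (interval 2.34 to 2.47), with a log2 ratio of -0.99 with Leiden classes and -0.77 at the lowest secretoglobin levels. The ciliated-like Bpifb1 ratio was -0.82 with cells near a gate left out. The median log2 ratios of the measured genes were -0.21, -0.15 and 0.23 in basal-, secretory- and ciliated-like cells, against 0.03, 0.05 and -0.03 over all genes tested.

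**Figure D4:**
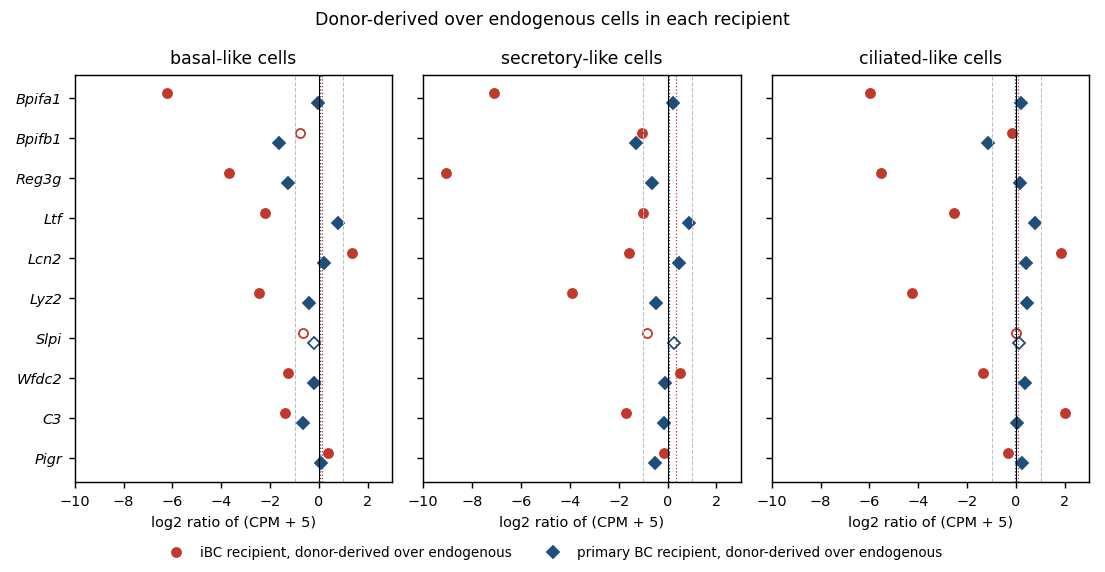
Log2 ratio of donor-derived over endogenous CPM (pseudocount 5 CPM) for each gene and class of each recipient, with dashed lines at a 2-fold difference, a dotted line at the median of all genes tested, and open symbols where both sums are under 20 CPM. Bpifa1, Reg3g and Lyz2 lie between -2.46 and -9.09 in the iBC recipient, and between -1.26 and 0.46 in the primary BC recipient.

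Between the 2 donor-derived libraries, iBC over primary BC, the levels are set side by side because donor cells, days, strain and animal differ together. Basal-like cells had 5 genes lower and 0 higher of 8 measured (5.82% lower and 6.23% higher over all genes tested), secretory-like cells 6 lower and 0 higher of 9 (6.94% and 8.01%) and ciliated-like cells 5 lower and 1 higher of 9 (6.46% and 5.52%). In secretory-like cells Bpifa1 was 564-fold lower (interval 539 to 591), Lyz2 24.1-fold, Ltf 4.38-fold, Lcn2 3.56-fold and C3 2.41-fold lower, and Reg3g 16870-fold lower (interval 10230 to 30150). The C3 log2 ratio was -0.95, under 2-fold, with cells thinned to 4000 UMIs. The Bpifa1 fold rests on 2 cells: without the iBC donor-derived cells in endogenous-majority clusters its secretory-like level was 3.65 CPM and its log2 ratio -13.93, against -9.11 with them. Without these cells Bpifa1 was at -10.88 in basal-like and -10.55 in ciliated-like cells (-10.13 and -10.56 with them), and Reg3g at -6.78, -12.26 and -11.58 in basal-, secretory- and ciliated-like cells (-5.96, -12.21 and -7.05 with them). The gene that was higher was C3 in ciliated-like cells, 2.68-fold (interval 2.12 to 3.41). Pigr and Bpifb1 differed by less than 2-fold in secretory-like cells, with ratios of 1.01 and 0.923.

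The endogenous cells of the 2 recipients also differed. With iBC over primary BC recipient, 4 genes were lower and 0 higher of 8 in basal-like cells (2.17% lower and 1.72% higher over all genes tested), 4 and 0 of 9 in secretory-like cells (4.21% and 1.66%) and 5 and 0 of 9 in ciliated-like cells (3.8% and 2.97%). Bpifa1 was 15.8-, 3.48- and 21.3-fold lower and Reg3g 11.8-, 13.6- and 2.55-fold lower in basal-, secretory- and ciliated-like cells. In secretory-like cells Wfdc2 was 2.58-fold and Lyz2 2.19-fold lower, the Lyz2 ratio falling under 2-fold with TMM scaling (log2 ratio -0.92). With Leiden classes the basal-like Bpifa1 log2 ratio was -0.31, and with doublets kept 3 of the ciliated-like genes were under 2-fold (Bpifb1 -0.64, Ltf -0.51 and Lcn2 -0.56). The ciliated-like Reg3g log2 ratio was -0.95, under 2-fold, in the 25% of cells with the lowest secretoglobin level. Basal-like Bpifb1, called lower at a log2 ratio of -1.03, rests on a primary BC endogenous level read as background (above). This Bpifb1 ratio fell under 2-fold with TMM scaling (-0.99), equal cell weights (-0.92), a 20 CPM pseudocount (-0.56) and cells near a gate left out (-0.48). Scgb1a1 alone had 237200 CPM in iBC endogenous against 67500 CPM in primary BC endogenous secretory-like cells, and the same comparison in donor-derived cells was 260200 against 67140 CPM. Each gene's CPM shares a total with Scgb1a1; the part of this in the lower values was tried by taking Bpifa1, Reg3g, Scgb1a1 and Scgb3a1 out of the totals, which moved none of the counts by more than 1.5 times but put Lyz2 at a log2 ratio of -0.95 in endogenous secretory-like cells.

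Single secretory-like cells of each library showed which genes went together. The rank correlation of Lcn2 and C3 over secretory-like cells was 0.52 in iBC donor-derived (445 cells), 0.45 in iBC endogenous (553), 0.57 in primary BC donor-derived (275) and 0.54 in primary BC endogenous cells (282). C3 and Pigr had 0.32, 0.46, 0.47 and 0.44 in the same order. Bpifb1 and the goblet cell secretoglobin Scgb3a1 had 0.47, 0.57, 0.74 and 0.73. Reg3g went with Scgb3a1 in the primary BC recipient (0.71 in donor-derived and 0.68 in endogenous cells) but had 0.02 in iBC endogenous cells. Bpifa1 and Bpifb1, neighbours on chromosome 2, had -0.21 in iBC endogenous, -0.11 in primary BC donor-derived and -0.37 in primary BC endogenous cells. Cells of a library share its depth and its free RNA, and a gene that takes much of a cell's total lowers the shares of all others, so these values are descriptions.

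Across the 18 sums of a class in a library, the genes most like Reg3g by Pearson r of log2(CPM + 5) were Slc5a8 (0.93), Slc16a11 (0.93) and Misp (0.89). For Bpifa1 they were Galnt7 (0.88), Cyp4a12b (0.87) and Rhoc (0.86), and for Bpifb1 Fut9 (0.90), Slc39a8 (0.89) and Fcgbp (0.88). For Ltf they were Muc1 (0.91), Ces1f (0.88) and Ttc36 (0.87), for Lyz2 Hsd17b4 (0.86), Tspan13 (0.84) and Idi1 (0.84), and for Lcn2 Steap4 (0.89), Qsox1 (0.87) and Gk (0.86). Wfdc2 was most like Gsto1 (0.93), Ptp4a1 (0.92) and Pam (0.92), C3 most like Sftpa1 (0.86), 5330417C22Rik (0.85) and Ascc2 (0.84), Pigr most like AU021092 (0.93), Qsox1 (0.93) and Fcgbp (0.93), and Slpi, at its low level, most like Sult1c1 (0.77), Chil1 (0.76) and Trf (0.73). Qsox1 and Fcgbp each stood beside 2 of the 10 genes. Sums of 1 library share its animal and depth, and sums of 1 class share its markers.

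Some of the other antimicrobial genes of the airway were also lower in iBC donor-derived than in endogenous cells of that recipient, with 0 higher and 3 lower of 7 in basal-like, 1 and 5 of 10 in secretory-like and 0 and 3 of 7 in ciliated-like cells. Over all genes tested, 4.79% were higher and 3.44% lower in basal-like, 9.01% and 3.49% in secretory-like and 3.67% and 4.78% in ciliated-like cells. Dmbt1, a scavenger receptor-like mucin that binds bacteria, had 23.32 CPM against 1804 CPM in secretory-like cells. The lung collectins that bind microbial sugars were lower as well, with Sftpa1 at 255.0 CPM against 726.9 CPM in secretory-like and Sftpd at 255.2 CPM against 609.2 CPM in ciliated-like cells. The beta-defensin Defb1 had 85.32 CPM against 223.2 CPM in basal-like cells. Of 2 oxidant defence genes measured, Cyba, a subunit of the oxidases that make superoxide, had 28.25 CPM against 247.7 CPM in secretory-like cells and was lower in all 3 classes. Cst3, which inhibits cysteine proteases, was the antimicrobial list's gene called higher, at 364.9 CPM against 158.3 CPM in secretory-like cells.

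Among the other acute phase genes, 5 were higher and 1 lower of 9 in ciliated-like cells of the iBC recipient (3.67% and 4.78% over all genes), with a median log2 ratio of 1.44 against 0.08 over all genes. Hp, which binds free haemoglobin, had 512.0 CPM in iBC donor-derived against 58.61 CPM in endogenous ciliated-like cells, the plasma carrier Orm1 had 319.9 CPM against 68.46 CPM, the copper oxidase Cp had 443.0 CPM against 160.6 CPM, and the metal-binding Mt2 had 628.6 CPM against 175.8 CPM. Lbp, which presents lipopolysaccharide to CD14, was lower, at 413.9 CPM against 990.2 CPM. Basal-like cells had 4 higher and 3 lower of 9 (4.79% and 3.44% over all genes), with Orm1 at 52.54 CPM against 2.45 CPM and Cd14 at 65.72 CPM against 199.8 CPM. Secretory-like cells had 1 higher and 1 lower of 7, against 9.01% and 3.49% over all genes, too few to set apart from that background. Among complement genes and regulators, 3 were higher and 2 lower of 8 in secretory-like cells (9.01% and 3.49% over all genes), with Clu, which blocks the terminal complement complex, at 2376 CPM in iBC donor-derived against 60.0 CPM in endogenous cells.

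Genes of IL-17, IL-22, IL-6 and NF-kB signalling, largely receptors, signalling parts and transcription factors, were also read in the iBC recipient. Their rates of calls did not lie consistently above or below those of all genes. In basal-like cells 0 were higher and 1 lower of 20, with 2 and 1 of 18 in secretory-like and 2 and 0 of 19 in ciliated-like cells. The median log2 ratios were 0.11, 0.34 and 0.14, against 0.14, 0.35 and 0.08 over all genes tested. RNA of these genes does not measure the activity of the pathway, which was not tested. The all-gene shares called higher and lower were 4.79% and 3.44% in basal-like, 9.01% and 3.49% in secretory-like and 3.67% and 4.78% in ciliated-like cells. Cebpa, a C/EBP factor, had 89.02 CPM against 44.28 CPM in secretory-like cells, and Nfkbia, the NF-kB inhibitor that NF-kB itself induces, had 286.4 CPM against 119.9 CPM in ciliated-like cells. In the primary BC recipient none of these genes was called in any class (0 of 19, 16 and 17). Over all genes there, 0.606%, 0.532% and 0.304% were called lower in basal-, secretory- and ciliated-like cells, and 0.191%, 0.389% and 0.536% higher. The largest list counts were 2 lower of 6 iron genes and 2 lower of 6 acute phase genes in basal-like cells, with Cp counted in both lists. The iron carrier Trf was the clearest of them, at 88.08 CPM in primary BC donor-derived against 361.1 CPM in endogenous basal-like cells.

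Marker sums of other cell types also differed between libraries. The 12 secretory markers summed to 8788 CPM in iBC donor-derived against 23160 CPM in iBC endogenous basal-like cells, and 20490 against 25190 CPM in the primary BC recipient, all 12 having UMIs. In ciliated-like cells they summed to 39500 against 33280 CPM and 17630 against 16760 CPM. Submucosal gland markers summed to 23.32 against 1804 CPM and 535.5 against 900.5 CPM in secretory-like cells, all or nearly all from Dmbt1. Goblet markers summed to 295.3 against 1127 CPM and 1933 against 3118 CPM there. The part of goblet cells and of free secretory RNA in the differences between libraries was not tested beyond the 25% of cells with the lowest secretoglobin level.

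Promoter windows, the 250 bases before a RefSeq transcription start in GRCm38.p6, are shown for the pair furthest below the endogenous level in iBC donor-derived cells, Bpifa1 and Reg3g, and for the pair that was lower in secretory-like and higher in ciliated-like cells, Lcn2 and C3. Capitals mark matches, on either strand, to the TATA box (TATAAA) or to simplified NF-kB (GGGA, any 4 bases, then CC) and C/EBP (TTGCNNAA) motifs; the C3 window has 2 NF-kB matches on 1 strand and 1 on the other.
Bpifa1, chr2:154142630-154142879, forward strand: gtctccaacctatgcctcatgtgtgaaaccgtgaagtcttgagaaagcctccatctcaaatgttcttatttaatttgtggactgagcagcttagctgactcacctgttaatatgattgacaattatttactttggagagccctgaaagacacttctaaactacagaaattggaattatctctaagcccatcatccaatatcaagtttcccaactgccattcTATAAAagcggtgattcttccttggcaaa
Reg3g, chr6:78468875-78469124, reverse strand: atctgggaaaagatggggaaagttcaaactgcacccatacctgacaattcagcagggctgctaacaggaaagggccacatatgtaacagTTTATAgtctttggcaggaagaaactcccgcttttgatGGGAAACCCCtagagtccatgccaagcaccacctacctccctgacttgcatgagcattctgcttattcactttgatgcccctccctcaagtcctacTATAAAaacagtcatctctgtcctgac
Lcn2, chr2:32387740-32387989, reverse strand: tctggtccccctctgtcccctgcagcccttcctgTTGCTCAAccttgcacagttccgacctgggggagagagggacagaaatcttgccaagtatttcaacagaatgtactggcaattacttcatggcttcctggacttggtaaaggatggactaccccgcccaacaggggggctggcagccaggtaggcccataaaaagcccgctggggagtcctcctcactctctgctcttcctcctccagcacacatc
C3, chr17:57228137-57228386, reverse strand: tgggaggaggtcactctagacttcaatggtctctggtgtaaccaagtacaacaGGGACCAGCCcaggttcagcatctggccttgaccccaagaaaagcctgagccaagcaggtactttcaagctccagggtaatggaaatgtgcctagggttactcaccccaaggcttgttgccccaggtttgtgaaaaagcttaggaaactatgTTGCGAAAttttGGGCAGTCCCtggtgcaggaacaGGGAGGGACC

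Bpifa1 and Reg3g each had a TATA box within 30 bases of the start, at 29 to 24 and 27 to 22 bases before it, and were the only 2 of the 10 genes with a match to TATAAA. It was found in 12.4% of all 32851 promoter windows of the same length. A gene was counted if any of its windows matched, while the shares are per window, and Bpifb1 and Wfdc2 had more than 1 window. The NF-kB motif matched in windows of 4 genes (Bpifb1, Reg3g, C3 and Pigr), against 17.6% of all windows, and the C/EBP motif in 4 (Ltf, Lcn2, Slpi and C3), against 9.56%. A STAT motif (TTCNNNGAA) matched in 1 gene, Bpifb1 at its second start, against 7.02% of all windows, and the forkhead motif TGTTTAC in 0, against 3.17%. C3 had both NF-kB and C/EBP matches, Reg3g an NF-kB match without C/EBP, and Lcn2 the reverse. Lyz2 and Wfdc2 had no match to any of these motifs. A match is a string of letters in this window, and binding was not measured.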

How the data were processed

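The files the authors deposited are matrices of UMI counts for each gene in each cell barcode, from the 10x Chromium system, per the labels' protocols. The build was GRCm38 and the tools named are Seurat, STARsolo and Cell Ranger, per the submitters' processing notes; their versions, roles and use of strand are not given in the sources used here. Reads of close copies (Lyz2 and Lyz1, Reg3g and its paralogs, the Bpif genes) or of overlapping genes can be shared, and mapping of 129 reads to this reference was not tested.

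Cells with at least 500 genes and at most 20% mitochondrial UMIs were kept, and Scrublet doublets (0.568% to 2.38% of a library) were removed. Marker scores, each the mean over a class's markers of scaled log CP10k, were gated (basal-like: basal score at least 0.40 and secretory under 0.50; secretory-like: basal under 0.25 and secretory at least 0.45; ciliated-like and immune-like: at least 0.30; hillock-like: at least 0.35), and other cells lay between gates. Leiden clusters (scanpy 1.11.5, 2000 variable genes without the 10 genes, 30 components, 15 neighbours, 17 clusters) gave an alternative. Counts were summed per class and library and given as CPM. With 1 library per group no test was made: ratios have exact 95% Poisson intervals for counting error only, log2 ratios a pseudocount of 5 CPM, and a call needs 20 CPM in 1 sum, a 2-fold difference and an interval without 1. How this performs on simulated counts is not reported here.

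The 10 genes, the gates, the other lists and the alternatives were chosen with earlier results of these data known. All 10 genes are named; from each list, the genes with the largest called ratios at 50 CPM or more. Alternatives were another scaling, filter, pseudocount, cell weighting, doublet treatment, clusters in place of gates, thinning to 4000 UMIs, and the 25% of cells with the lowest secretoglobin level; after seeing the data, totals without the most abundant genes, cells near a gate left out, EGFP cells only, and leaving out iBC donor-derived cells in endogenous-majority clusters were added.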

Additional observations from a re-analysis of the deposited data

Results flagged for a closer look

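For 9 pairs of a gene and a class, iBC donor-derived cells were lower than endogenous cells of the same recipient by at least 2-fold. For these pairs, donor-derived cells of the primary BC recipient lay on the other side of 0. Each group is 1 library, so the difference between recipients was not tested. On the log2 scale, iBC recipient before primary BC recipient, Bpifa1 had -7.103 against 0.206 in secretory-like and -5.969 against 0.201 in ciliated-like cells. Reg3g had -5.539 against 0.162, Lyz2 -4.245 against 0.458 and Wfdc2 -1.353 against 0.349 in ciliated-like cells. Lcn2 had -1.583 against 0.448 in secretory-like cells. Ltf was flagged in every one of the 3 classes, with -2.212 against 0.795 in basal-like, -1.002 against 0.874 in secretory-like and -2.526 against 0.784 in ciliated-like cells. The primary BC values were all within 2-fold. In the iBC endogenous library, ciliated-like Bpifa1 fell under the level of immune-like cells at the lowest secretoglobin level. The interval of basal-like Ltf there overlapped that of immune-like cells.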

How the results depend on the processing

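No paired analysis was possible because each group has 1 library and the labels give no shared replicate numbers. Of 120 ratios of a gene in a class and comparison, 105 were measured and 55 called. Under 15 alternatives, 283 values of the counts stayed within 1.5 times of the reported ones and 23 moved; for single genes 837 stayed within their counting interval, 490 moved and 1 reversed. The reversed one was Ltf in endogenous ciliated-like cells, iBC over primary BC recipient, at 0.12 in the 25% of cells with the lowest secretoglobin level against the reported -1.05. The cause of these moves was not tested. In primary BC basal-like cells the count of lower genes was 1, against 2 reported, with cells weighted equally, in the cells of lowest secretoglobin level and without cells near a gate; the count of higher genes, 0 as reported, was 1 with equal weights, doublets kept, Leiden classes and thinning, 2 without cells near a gate and 3 at the lowest secretoglobin level. In primary BC ciliated-like cells the lower count was 0 without cells near a gate (reported 1), and the higher count 1 there and at the lowest secretoglobin level (reported 0). In the iBC recipient the higher count of basal-like cells was 0 with Leiden classes and at the lowest secretoglobin level (reported 1), and that of ciliated-like cells 1 with doublets kept (reported 2). Between donor-derived libraries the higher count of basal-like cells was 1 with Leiden classes (reported 0). Between endogenous libraries, basal-like cells had 2 lower (reported 4) and 2 higher with Leiden classes and 1 higher with no filter (reported 0). Ciliated-like cells there had 2 lower with doublets kept and at the lowest secretoglobin level and 3 without cells near a gate (reported 5), with 1 higher at the lowest secretoglobin level (reported 0). TMM scaling, centring, the pseudocounts, totals without the most abundant genes and both alternatives on iBC donor-derived cells moved no count by over 1.5 times. Values under 20 CPM rest on few UMIs, and depth limits Slpi most.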

Other observations

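The 82 hillock-like cells of the primary BC donor-derived library had 8828 CPM of Ltf, its second highest level among all classes and libraries, under the 13810 CPM of secretory-like cells of that library. The median hillock-like cell had 1.61 Ltf UMIs per 10000 and the upper quartile was 148. Of these cells 49 lay near a gate and 31.7% fell in the hillock-like class by Leiden clusters, and their Bpifa1 level was 28480 CPM, with a median of 4.97 and an upper quartile of 365 UMIs per 10000. The part of secretory cells near the gate in the Ltf level was not tested. The iBC donor-derived, iBC endogenous and primary BC endogenous libraries held 24, 6 and 31 hillock-like cells, too few to set beside it.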
